A study of Arabidopsis thaliana with 18 samples.

Results

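Leaves of Arabidopsis thaliana carrying an ml2 knockdown were compared with wild-type (WT) leaves after a week of darkness, over every gene of the deposited count table. The members are the 3 libraries of the ml2 knockdown at day 7 and the 3 WT libraries at day 7. They are 6 of the 18 libraries of the series, defined by their labels. The labels give leaf as the tissue and dark as the treatment of all 18 libraries, at day 0 or day 7, and the third genotype is an ml5 knockdown. No source used here gives plant age, accession, time of day at harvest, how the knockdown was made or how many independent lines it comprises. Of 27628 genes listed, 19493 had enough counts to be tested, from 17722218 to 19991655 counts per day 7 library. The series is titled as a study of the plant autophagy pathway, and the comparison bears on how leaves with little ML2 RNA differ from WT once they have been starved of light.

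ML2 is a Mei2-like protein, a plant relative of the fission yeast RNA-binding protein Mei2 that controls entry into meiosis, and in Arabidopsis the family is known from meiosis and early development. Leaves kept in the dark cannot photosynthesise: they run out of sugar, stop growing, break down protein and lipid for respiration, recycle cell contents by autophagy and finally senesce. Abscisic acid, jasmonate, salicylic acid and ethylene all act on the pace of that decline. The circadian clock and the light-signalling factors, which normally time metabolism to the day, also lose their light input.

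After 7 days of darkness 5036 of the 19493 tested genes differed between ml2 and WT at an adjusted p under 0.05 (edgeR quasi-likelihood test, Benjamini-Hochberg adjustment over all tested genes), which is 25.8%. Of these, 2612 genes (13.4%) were higher in ml2 and 2424 (12.4%) were lower, and 319 (1.64%) and 244 (1.25%) of all tested genes were called with at least a 2-fold difference in those directions. The median log2 fold change of all tested genes was -0.0051. Levels are counts per 1e6 counts of the library (CPM), with library totals scaled by the trimmed mean of M-values, and errors of log2 fold changes are standard errors. With library sizes alone as the scale, 5288 genes were called, but the split moved from 51.9% higher in ml2 to 41.2% higher, with a median of -0.0451 over all genes. The libraries of the groups did not overlap at all for 7850 genes, 40.3% of those tested, with ml2 above WT for 19.9% and below it for 20.3%. Non-overlap was a condition in the rule for naming genes, so for a named gene it is no separate support. For 3024 genes (15.5%) the call held under every alternative tried. Genotype separated the 6 libraries along the first principal component, which held 50% of the variance, and the second, with 13.9%, set ml2 replicate 1 at 23.2 and ml2 replicate 2 at -25.7 on opposite sides of the other libraries. With any single day 7 library left out, 4087 to 4520 genes were called. Whether each replicate came from its own plants is not stated, and p-values therefore reflect only the spread among replicate libraries, which may be technical. That spread was estimated over all 18 libraries of the series, not the 6 of day 7 alone. The extraction protocol names doxycycline-treated leaves without tying them to any sample.

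**Figure D1:**
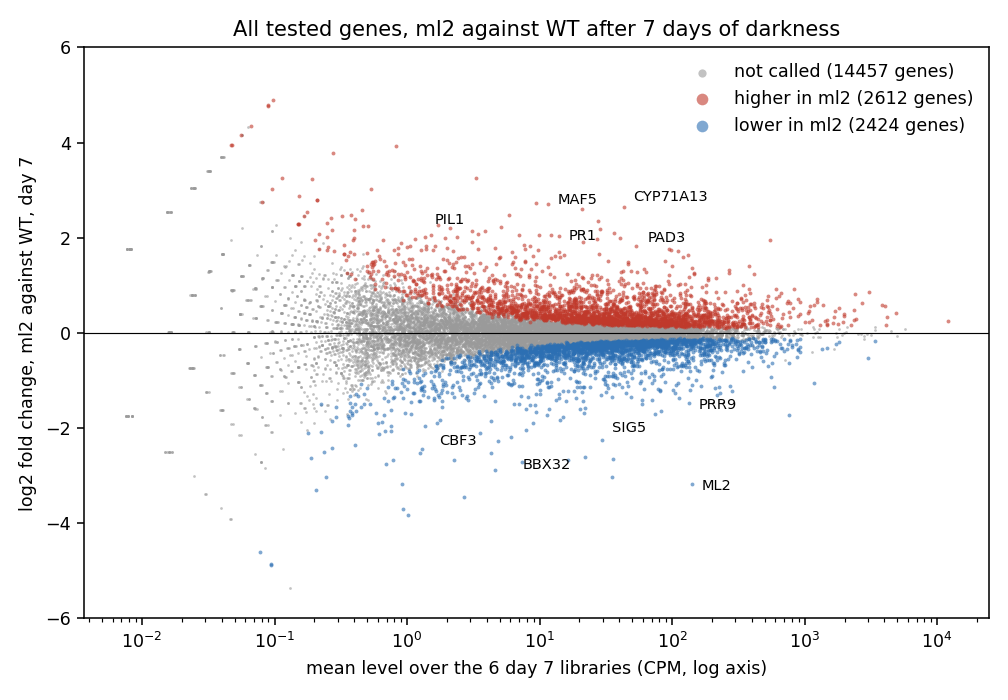
Log2 fold change of ml2 against WT at day 7 for each tested gene (y) against its mean level over the 6 day 7 libraries in CPM (x, log axis). Red points are the 2612 genes called higher in ml2, blue points the 2424 called lower and grey points the rest. ML2 at -3.18 is the lowest of the labelled genes and MAF5 at 2.71 the highest. AT1G64795, which had no count in any WT library, lies above the axis.

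The targeted gene was low in every ml2 library. ML2 (AT2G42890, TAIR10.1 chr2:17849819-17854553, plus strand) stood at 247, 257 and 254 CPM in the WT libraries and 27.5, 29.7 and 26.4 CPM in the ml2 libraries. The groups were far apart, at 9.08-fold (log2 fold change -3.18 ± 0.059, adjusted p = 1.42e-26), and ml2 leaves held 11% of the WT level at day 7. At day 0 the share was 10.4%, from levels of 63.02, 58.7 and 61.8 CPM in WT and 5.54, 6.01 and 7.49 CPM in ml2. The WT libraries stood higher at day 7 than at day 0, a difference between days that was not tested here. In bulk leaf RNA, fewer cells of a type and less RNA per cell cannot be told apart.

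The other Mei2-like genes had small log2 fold changes. ML1 stood at 167, 161 and 165 CPM in the WT libraries and 129.7, 142 and 139 CPM in the ml2 libraries, a small but non-overlapping difference (log2 fold change -0.27 ± 0.053, adjusted p = 0.00021). ML5 was slightly higher (log2 fold change 0.18 ± 0.049, adjusted p = 0.00693), a call that ended when WT replicate 3 was left out. ML4 was not called (log2 fold change -0.009 ± 0.076, adjusted p = 0.951). TEL1 and TEL2, the terminal ear-like relatives, were listed at 0 in all 18 libraries, and ML3 was not analysed here.

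Most genes beside ML2 on chromosome 2 were not called. Among the 20 tested genes on each side of ML2, 11 of 40 (27.5%) were called, 6 higher and 5 lower, against 25.9% of the tested genes of chromosome 2 and 25.1% to 26.7% across the 5 chromosomes. Of the 5 nearest on each side, 2 passed the test. AT2G42900, annotated as a basic secretory protein, begins 3 bases beyond the end of ML2 on the same strand. Its level was 4.06, 3.97 and 3.47 CPM in the WT libraries and 17.9, 15.4 and 14.8 CPM in the ml2 libraries, so every ml2 library lay well above every WT library (log2 fold change 2.06 ± 0.14, adjusted p = 3.44e-13). At day 0 the order was the opposite, with 4.13, 3.13 and 2.41 CPM in WT and 1.62, 2.02 and 1.4003 CPM in ml2 (log2 fold change -0.94 ± 0.21, adjusted p = 0.000503). AT2G42910, a phosphoribosyltransferase family gene next to it, was slightly lower (log2 fold change -0.25 ± 0.063, adjusted p = 0.0029), while MPK20, a MAP kinase gene on the other side of ML2, was not called (log2 fold change 0.083 ± 0.069, adjusted p = 0.424).

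One locus on chromosome 1 marked the ml2 libraries without overlap, and it was picked after its values were seen. AT1G64795 (chr1:24082579-24082848), annotated as an uncharacterized protein, had no count in any WT library. It stood at 0, 0 and 0 CPM in the WT libraries and 19.3, 15.9 and 17.8 CPM in the ml2 libraries. Against a limit of 3 counts per WT library, 0.142 CPM, the level in ml2 was at least 124-fold higher. At day 0 the levels were 0, 0 and 0 CPM in WT and 8.79, 8.79 and 9.69 CPM in ml2, and the ml5 libraries at day 7 were listed at 0.

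Starvation genes were higher in ml2. The gene lists used from here on were drawn up with earlier results of these data known. Their counts, set beside those of all genes, are therefore no independent support. Of the 17 tested genes of the dark and sugar starvation list, 15 were higher and 1 lower, with a median log2 fold change of 0.604 beside -0.0051 over all genes. Before the dark week, at day 0, 15 were also higher and none lower, with a median of 1.08. The log2 fold change was called smaller at day 7 than at day 0 for 9 and larger for 4. TPS8, a class II trehalose-phosphate synthase-like protein, stood at 122, 112 and 117 CPM in the WT libraries and 249, 261 and 254 CPM in the ml2 libraries (log2 fold change 1.12 ± 0.045, adjusted p = 2.48e-18). BT2, a BTB-domain protein induced by low sugar and nitrogen, was at 20.6, 20.9 and 20.02 CPM in the WT libraries and 44.99, 47.3 and 41.3 CPM in the ml2 libraries, again with every ml2 library above every WT library (log2 fold change 1.12 ± 0.062, adjusted p = 5.32e-15). DRM1, a dormancy marker (0.97), DIN9, a phosphomannose isomerase (0.93), and AKINBETA1, a regulatory subunit of the energy sensor kinase SnRK1 (0.796), were also higher on the log2 scale. TPS9, TPS10 and TPS11 gave log2 fold changes of 0.604, 0.62 and 0.69.

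DIN6, DIN10, SEN1 and DIN4, further dark-inducible genes, were higher by less than the list's median. DIN6, the asparagine synthetase that stores nitrogen as asparagine, had 3681, 3727 and 3749 CPM in the WT libraries and 4502, 4873 and 4733 CPM in the ml2 libraries (log2 fold change 0.34 ± 0.059, adjusted p = 4.57e-05). DIN10, a raffinose synthase-family enzyme, reached 3028, 3082 and 3069 CPM in the WT libraries and 4348, 4795 and 4631 CPM in the ml2 libraries (log2 fold change 0.59 ± 0.044, adjusted p = 4.1e-12). SEN1, a senescence-associated gene of dark leaves, differed by 0.17 and DIN4, a subunit of branched-chain keto acid dehydrogenase, by 0.15, the latter a call that ended with library sizes alone and without some single libraries. EXL2, the member called lower, gave -0.14 and also lost its call without some single libraries. EXL4, of the same EXORDIUM-like family, was not called (log2 fold change 0.042 ± 0.046, adjusted p = 0.557).

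Genes that break down amino acids were more often higher than lower on both days. At day 0, 13 of 23 tested were higher and 2 lower, with a median of 0.169, and under DESeq2 11 were higher and 4 lower. After the dark week 13 were higher and 1 was lower, with a median of 0.204. TAT3, a tyrosine aminotransferase also induced by jasmonate and wounding, was at 10.5, 11.7 and 10.7 CPM in the WT libraries and 46.2, 41.97 and 40.4 CPM in the ml2 libraries (log2 fold change 1.97 ± 0.087, adjusted p = 2.06e-17). GDH1, glutamate dehydrogenase, was at 65.6, 67.3 and 68.9 CPM in the WT libraries and 119.6, 106 and 113 CPM in the ml2 libraries (log2 fold change 0.74 ± 0.055, adjusted p = 3.79e-12), and its partner GDH2 differed by 0.396. MGL, methionine gamma-lyase (0.47), HGO, homogentisate oxidase of tyrosine breakdown (0.35), BCAT2, a branched-chain aminotransferase (0.34), and the 3-methylcrotonyl-CoA carboxylase subunits MCCA (0.24) and MCCB (0.31) were called higher with log2 fold changes below 0.5. The exception was ARGAH2, an arginase of the jasmonate response, at 209, 196 and 198 CPM in the WT libraries and 120.5, 111 and 116 CPM in the ml2 libraries (log2 fold change -0.799 ± 0.046, adjusted p = 8.72e-15). ERD5, the proline dehydrogenase that opens proline breakdown, was among the 5 largest gains in CPM, at 3241, 3222 and 3285 CPM in the WT libraries and 4771, 4850.3 and 4776 CPM in the ml2 libraries (log2 fold change 0.56 ± 0.043, adjusted p = 7.77e-12).

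**Figure D2:**
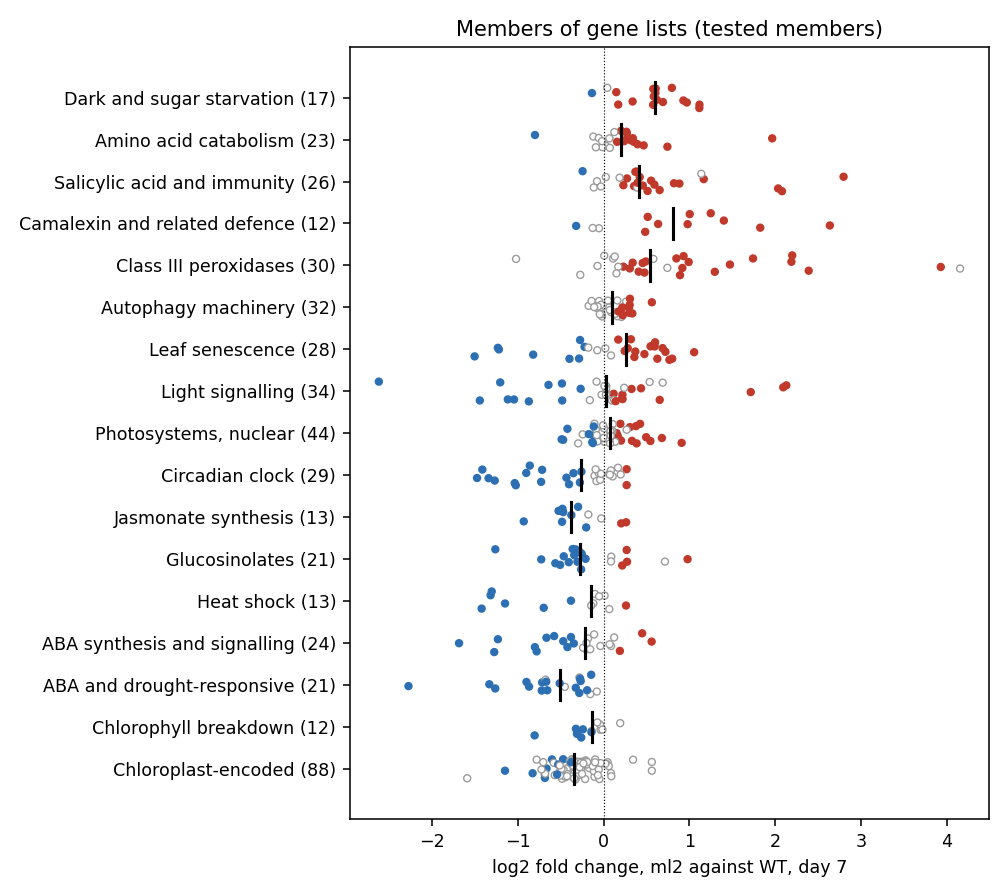
Log2 fold change of ml2 against WT at day 7 (x) for the tested members of each gene list (rows, with the number of tested members). Filled red points were called higher, filled blue points lower, open points were not called, and the black bar is the list median. Starvation genes have a median of 0.604 and genes responsive to abscisic acid (ABA) and drought one of -0.512.

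Salicylic acid is the hormone of resistance to biotrophic pathogens and also a promoter of leaf senescence, and its marker genes were higher in ml2. Of 26 tested genes, 18 were higher and 1 was lower, with a median of 0.409. PR1, the standard marker of salicylic acid responses, stood at 6.04, 4.86 and 5.43 CPM in the WT libraries and 23.5, 22.03 and 21.6 CPM in the ml2 libraries (log2 fold change 2.03 ± 0.095, adjusted p = 7.68e-17). PR2, a beta-1,3-glucanase, had 17.62, 18.6 and 17.9 CPM in the WT libraries and 41.2, 39.1 and 41.4 CPM in the ml2 libraries (log2 fold change 1.17 ± 0.061, adjusted p = 9.09e-16), and PR5, a thaumatin-like protein, 1.22, 1.26 and 1.46 CPM in the WT libraries and 5.69, 4.34 and 6.59 CPM in the ml2 libraries (log2 fold change 2.08 ± 0.17, adjusted p = 5.11e-11). In all 3 genes every ml2 library exceeded every WT library by more than the spread within either group, although their levels were low.

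Receptors and regulators of the same pathway were higher by smaller amounts. NPR4 and NPR3, which bind salicylic acid, gave log2 fold changes of 0.88 and 0.55, and NPR1, the receptor and coactivator, 0.23. FMO1, which makes N-hydroxypipecolic acid, gave 0.65, and CBP60G and SARD1, the transcription factors that switch on salicylic acid synthesis, 0.59 and 0.38. The synthesis gene ICS1 was called higher at log2 fold change 0.37 ± 0.102, adjusted p = 0.00658, but not without ml2 replicate 3. PAD4 and EDS1, lipase-like hubs of immunity, were not called, at -0.11 and 0.026. WRKY18 was the member called lower (log2 fold change -0.24 ± 0.053, adjusted p = 0.000699). WRKY38 also counted among the higher members but stood below 0.5 CPM in every library, and its call ended under the stricter filter and without WT replicate 2.

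Camalexin is the indole phytoalexin of Arabidopsis, made from tryptophan. Most of its pathway was higher, with 9 of 12 tested genes higher, 1 lower and a median of 0.808. ASA1, anthranilate synthase, and TSA1, a tryptophan synthase subunit, which supply tryptophan, gave log2 fold changes of 0.64 and 0.49. CYP79B2, which turns tryptophan into indole-3-acetaldoxime, was at 54.1, 56.7 and 54.1 CPM in the WT libraries and 154, 141 and 140.4 CPM in the ml2 libraries (log2 fold change 1.402 ± 0.058, adjusted p = 4.28e-18). CYP71A13, the next enzyme, was at 11.99, 12.2 and 11.6 CPM in the WT libraries and 87.1, 66.7 and 69.3 CPM in the ml2 libraries (log2 fold change 2.64 ± 0.11, adjusted p = 2.39e-18). PAD3 (CYP71B15), the last enzyme, was at 21.1, 27.002 and 22.8 CPM in the WT libraries and 86.3, 76.3 and 88.97 CPM in the ml2 libraries (log2 fold change 1.83 ± 0.083, adjusted p = 3.9e-17). For these enzymes the lowest ml2 library stood above the highest WT library by more than 2-fold.

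The closely related CYP71A12 (1.250) and the glutathione S-transferase GSTF6 (1.004) were also higher. CYP71A12 and CYP71A13 are near-identical neighbours, so their counts are uncertain where reads match both. WRKY33, the transcription factor that drives the pathway after infection, was not called (log2 fold change -0.054 ± 0.065, adjusted p = 0.607), nor was MYB51 (log2 fold change -0.13 ± 0.064, adjusted p = 0.156). CYP79B3, the copy of CYP79B2, was called lower at -0.32, a call that ended when WT replicate 1 or ml2 replicate 3 was left out. The nitrilases NIT4 and NIT2 gave 0.98 and 0.51.

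Class III peroxidases, secreted enzymes that use hydrogen peroxide in the cell wall, were higher as a family: 19 of 30 tested were higher, none was lower, and the median was 0.536. Leaving out single day 7 libraries gave 17 to 19 higher and at most 1 lower. The other members of the family, 37 of the 67 listed, had too few counts to be tested. Prx37 was at 10.4, 10.09 and 10.5 CPM in the WT libraries and 48.4, 45.2 and 47.7 CPM in the ml2 libraries (log2 fold change 2.19 ± 0.11, adjusted p = 8.76e-16) and PRXCA at 1.803, 1.87 and 1.66 CPM in the WT libraries and 9.38, 10.2 and 10.09 CPM in the ml2 libraries (log2 fold change 2.47 ± 0.17, adjusted p = 4.79e-13). Both have close relatives in tandem, which share reads. AT4G37520, another member, stood at far higher levels of 568, 585 and 585 CPM in the WT libraries and 1127, 1045 and 1114 CPM in the ml2 libraries (log2 fold change 0.92 ± 0.045, adjusted p = 3.12e-16). Cysteine-rich receptor-like kinases, plasma membrane kinases of which many respond to pathogens, were higher for 15 and lower for 5 of 38 tested, with a median of 0.336, which was 0.174 with the stricter filter. CRK7 (1.47), CRK4 (0.91) and CRK2 (0.49) were among them. The count of lower members fell to 2 without WT replicate 2 or 3.

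Drought and cold genes lay on the opposite side. Of 21 tested genes that respond to abscisic acid, drought or cold, 16 were lower in ml2 and none was higher, with a median of -0.512; with each day 7 library left out in turn 15 or 16 were lower. CBF3 (DREB1A), the cold-induced activator of this set, stood at 6.54, 9.11 and 8.45 CPM in the WT libraries and 1.45, 1.46 and 2.03 CPM in the ml2 libraries (log2 fold change -2.27 ± 0.18, adjusted p = 2.12e-11). RD29A, a classic target, was at 43.4, 40.7 and 38.2 CPM in the WT libraries and 20.5, 24.7 and 20.5 CPM in the ml2 libraries (log2 fold change -0.899 ± 0.100, adjusted p = 1.85e-08), and RD22, a dehydration-responsive gene, at 107, 107 and 105 CPM in the WT libraries and 63.9, 66.4 and 63.5 CPM in the ml2 libraries (log2 fold change -0.72 ± 0.049, adjusted p = 5.41e-13). The groups did not overlap in any of these, which was a condition in the naming rule. CBF2 (-0.67), DREB2A (-0.51), KIN2 (-0.66), COR15A (-1.26) and RD29B (-0.87) were lower too, the last pair at under 5 CPM. KIN1 and KIN2 are near-identical in sequence, so their separate counts are uncertain. COR47, the member with the highest level, was not called (log2 fold change -0.079 ± 0.038, adjusted p = 0.126), nor were CBF1 (-0.45) and RAB18 (-0.28).

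Abscisic acid acts through PYL receptors that block clade A protein phosphatases, whose genes the hormone itself induces. Of 24 tested genes of its synthesis and signalling 11 were lower and 3 higher, with a median of -0.221. The phosphatases led the falls. HAI2 was at 33.5, 32.4 and 32.7 CPM in the WT libraries and 9.38, 11.4 and 9.91 CPM in the ml2 libraries (log2 fold change -1.68 ± 0.089, adjusted p = 1.32e-15), PP2CA at 335, 318 and 320.3 CPM in the WT libraries and 131, 139 and 133 CPM in the ml2 libraries (log2 fold change -1.27 ± 0.045, adjusted p = 7.73e-20) and SAG113 (HAI1), also a senescence gene, at 405, 389 and 406 CPM in the WT libraries and 173, 166 and 172 CPM in the ml2 libraries (log2 fold change -1.23 ± 0.051, adjusted p = 4.28e-18). In each, ml2 held less than the lowest WT library in every replicate, again a condition in the naming rule. ABI2 (-0.67), HAB1 (-0.47) and ABI1 (-0.38) were lower as well, while HAB2 was not called (-0.11). The synthesis enzyme ABA1, zeaxanthin epoxidase, was lower (-0.58), whereas NCED3, which makes the committed cleavage, was not called (log2 fold change 0.087 ± 0.12, adjusted p = 0.656). Among receptors PYL4 was lower (-0.800) and PYL5 higher (0.56). PYL6 and ABF4 were called higher at 0.45 and 0.19, but 1 member was called higher without WT replicate 1 and without ml2 replicate 3.

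The stretches before the starts of 4 of these genes are shown because their genes were lower together and carry motifs of the pathway. They are the 300 bases before the annotated gene start in TAIR10.1 (RefSeq), 5′ to 3′ on the gene's strand. Capitals mark matches on either strand to the abscisic acid response element core ACGTGNC in the first 3, and to the dehydration-responsive element core CCGAC, which CBF and DREB2 factors bind, in RD29A. The coordinates are chr1:2282829-2283128, minus strand for HAI2, chr3:3585851-3586150, minus strand for PP2CA, chr5:21236721-21237020, plus strand for RD29B and chr5:21240417-21240716, plus strand for RD29A.
HAI2: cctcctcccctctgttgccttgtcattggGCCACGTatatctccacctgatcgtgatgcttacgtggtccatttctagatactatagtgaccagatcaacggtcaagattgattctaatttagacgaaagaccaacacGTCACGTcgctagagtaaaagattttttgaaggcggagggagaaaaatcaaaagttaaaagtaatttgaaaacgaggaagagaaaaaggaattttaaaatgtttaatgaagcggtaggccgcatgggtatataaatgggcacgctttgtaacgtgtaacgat
PP2CA: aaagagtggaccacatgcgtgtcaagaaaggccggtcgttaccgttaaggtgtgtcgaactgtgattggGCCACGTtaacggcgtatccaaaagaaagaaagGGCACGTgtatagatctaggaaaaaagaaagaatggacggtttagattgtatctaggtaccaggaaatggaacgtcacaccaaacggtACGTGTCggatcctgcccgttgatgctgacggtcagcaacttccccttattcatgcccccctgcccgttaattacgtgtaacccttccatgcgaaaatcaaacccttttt
RD29B: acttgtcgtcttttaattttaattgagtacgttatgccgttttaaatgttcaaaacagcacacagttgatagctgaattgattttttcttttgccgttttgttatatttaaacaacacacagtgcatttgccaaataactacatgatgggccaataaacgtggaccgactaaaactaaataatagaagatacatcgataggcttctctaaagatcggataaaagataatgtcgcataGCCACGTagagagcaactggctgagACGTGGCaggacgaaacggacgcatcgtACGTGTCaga
RD29A: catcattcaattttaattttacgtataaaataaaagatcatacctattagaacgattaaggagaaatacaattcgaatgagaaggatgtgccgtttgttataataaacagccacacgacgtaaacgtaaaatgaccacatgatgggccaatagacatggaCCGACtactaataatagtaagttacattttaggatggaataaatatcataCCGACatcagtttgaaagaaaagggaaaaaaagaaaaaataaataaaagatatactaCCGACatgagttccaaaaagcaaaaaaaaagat

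Among all 20014 genes whose window touches no neighbouring gene, 9.14% hold ACGTGNC and 12.6% hold CCGAC. The first motif was found in 6 of 18 windows of drought and cold genes and in 8 of 23 of the synthesis and signalling genes, and the second in 4 of 18 and 2 of 23. Windows of all genes lower in ml2 held ACGTGNC in 13.6% of cases and those of all genes higher in ml2 in 11.1%, against 10.3% for all tested genes. A match is a description of letters, not a site in use.

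Heat shock proteins are chaperones that refold damaged protein, and some of their genes were lower in ml2. Of 13 tested genes of the heat shock list, 6 were lower and 1 higher, with a median of -0.144, which was -0.254 without WT replicate 1, -0.227 without ml2 replicate 2, -0.259 without ml2 replicate 3 and -0.261 with the stricter filter. HSP101, a disaggregase needed for acquired heat tolerance, was at 103, 103 and 104 CPM in the WT libraries and 34.8, 43.8 and 37.04 CPM in the ml2 libraries (log2 fold change -1.42 ± 0.073, adjusted p = 7.32e-16). HSP90.1 was at 312, 313 and 302 CPM in the WT libraries and 115, 143 and 117 CPM in the ml2 libraries (log2 fold change -1.304 ± 0.066, adjusted p = 6.21e-16), and HSFA2, the heat-inducible transcription factor, at 42.3, 40.7 and 40.6 CPM in the WT libraries and 18.3, 16.8 and 14.6 CPM in the ml2 libraries (log2 fold change -1.32 ± 0.097, adjusted p = 2.97e-12). Each ml2 library held less than 50% of every WT library in these genes. MBF1C, a transcriptional coactivator (-1.15), ROF1, an FKBP-type immunophilin (-0.698), and HSFB2A (-0.38) followed, and HSFA7A was the member called higher (0.26).

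The small heat shock proteins HSP17.4 (-0.100), HSP17.6A (-0.12), HSP17.6II (-0.14) and HSP18.2 (0.067) were not called. Cytosolic chaperones not counted in that list were among the largest losses in CPM. HSP70 (AT3G12580) was at 1174, 1170.3 and 1180.3 CPM in the WT libraries and 329.97, 381 and 348 CPM in the ml2 libraries (log2 fold change -1.74 ± 0.054, adjusted p = 8.73e-21). HSC70-1, the constitutive form, was at 3517, 3497 and 3542 CPM in the WT libraries and 2419.5, 2466 and 2476 CPM in the ml2 libraries (log2 fold change -0.52 ± 0.032, adjusted p = 4.84e-14). HSP81-2 and HSP81-3, cytosolic HSP90 copies with shared sequence, differed by -1.14 and -0.93.

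Jasmonate synthesis was lower. Of 13 tested enzymes 9 were lower and 2 higher, with a median of -0.376. AOC2, an allene oxide cyclase, was at 48.3, 50.4 and 47.4 CPM in the WT libraries and 25.8, 23.7 and 27.1 CPM in the ml2 libraries (log2 fold change -0.93 ± 0.058, adjusted p = 5.59e-14). LOX2, the chloroplast lipoxygenase that starts the pathway, had 690.3, 678 and 682 CPM in the WT libraries and 476, 499.6 and 489.7 CPM in the ml2 libraries (log2 fold change -0.48 ± 0.062, adjusted p = 3.3e-07), AOS 319, 312 and 328 CPM in the WT libraries and 229.8, 226 and 232 CPM in the ml2 libraries (log2 fold change -0.48 ± 0.046, adjusted p = 8.13e-10) and OPR3, the peroxisomal reductase, 97.9, 103 and 103 CPM in the WT libraries and 76.3, 68.9 and 71.8 CPM in the ml2 libraries (log2 fold change -0.48 ± 0.051, adjusted p = 7.97e-09). JAR1, which makes the active isoleucine conjugate, gave -0.52. The AOC copies resemble each other, and AOC1 and AOC3 were lower by smaller amounts (-0.203 and -0.297). AOC4 and LOX6 were called higher at 0.26 and 0.21. No member was called higher with library sizes alone, or without WT replicate 2, WT replicate 3, ml2 replicate 1 or ml2 replicate 2. Under DESeq2, with the replicate block, and without WT replicate 1 or ml2 replicate 3, 1 was.

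In jasmonate signalling members went both ways, with 9 lower and 8 higher of 22 tested and a median of -0.17, which was -0.0883 without WT replicate 3 and -0.0712 without ml2 replicate 1. MYC2, the main activator, was at 263, 251 and 260.4 CPM in the WT libraries and 128, 144 and 138 CPM in the ml2 libraries (log2 fold change -0.92 ± 0.051, adjusted p = 3.87e-15), and MYC4 gave -1.13. The repressors JAZ1 and JAZ2 were lower (-0.55 and -0.56), as was CYP94C1, which inactivates the hormone (-0.78). PDF1.2, a defensin controlled by jasmonate and ethylene, was higher at 1.58, 1.87 and 2.41 CPM in the WT libraries and 4.44, 3.27 and 3.502 CPM in the ml2 libraries (log2 fold change 0.94 ± 0.18, adjusted p = 0.000186). Without WT replicate 1, WT replicate 3 or ml2 replicate 3, 5 members were called higher.

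Glucosinolates are the mustard oil precursors of the cabbage family. Of 21 tested genes of their synthesis, transport and breakdown 13 were lower and 4 higher, with a median of -0.271. CYP83B1, which takes indole-3-acetaldoxime into indole glucosinolates, was at 299.6, 294 and 297 CPM in the WT libraries and 198, 200.3 and 205 CPM in the ml2 libraries (log2 fold change -0.56 ± 0.048, adjusted p = 7.17e-11). The activators MYB34 (-1.26) and MYB28 (-0.51), the transporter GTR1 (-0.73) and the glycosyltransferase UGT74B1 (-0.46) were lower. TGG2, a myrosinase that breaks glucosinolates down, was the most changed of the higher members, at 49.6, 49.9 and 53.2 CPM in the WT libraries and 103, 98.1 and 100.03 CPM in the ml2 libraries (log2 fold change 0.98 ± 0.044, adjusted p = 3.9e-17), and TGG1 gave 0.27. Thus CYP83B1 and the camalexin enzyme CYP71A13, which use the same intermediate, lay on opposite sides.

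Clock genes were more often lower than higher. Of 29 tested genes 15 were lower and 2 higher, with a median of -0.258, and single libraries left out gave 14 to 16 lower. CCA1, a morning Myb repressor, was at 69.5, 70.5 and 71.6 CPM in the WT libraries and 26.8, 30.3 and 26.4 CPM in the ml2 libraries (log2 fold change -1.34 ± 0.059, adjusted p = 2.06e-17), and its partner LHY gave -0.72. PRR9, the earliest pseudo-response regulator of the day, was at 198, 199 and 196 CPM in the WT libraries and 72.02, 70.5 and 70.7 CPM in the ml2 libraries (log2 fold change -1.47 ± 0.051, adjusted p = 7.72e-20) and PRR5 at 119, 118 and 118 CPM in the WT libraries and 51.9, 62.8 and 58.5 CPM in the ml2 libraries (log2 fold change -1.04 ± 0.061, adjusted p = 1.71e-14). The groups did not overlap in any gene whose levels are given, but non-overlap was a condition in the naming rule and held for 40.3% of all tested genes.

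LNK1, an activator that works with RVE8, was at 152, 149 and 148 CPM in the WT libraries and 64.04, 61.7 and 60.9 CPM in the ml2 libraries (log2 fold change -1.27 ± 0.047, adjusted p = 3.15e-19); RVE8 itself gave -1.02 and RVE1, another Myb factor of that family, -0.86. CDF1 and CDF3, DOF repressors of flowering, gave -1.41 and -0.902. The evening genes TOC1 (0.065), LUX (0.17) and ELF4 (-0.058) were not called, and the evening gene GI was lower (-0.43). ELF3 was called higher at 0.27, but not without ml2 replicate 2, and CCL, a clock-controlled gene of unknown biochemical role, was higher at 0.27. ASG4, a Myb-like gene outside the list, was at 6.76, 8.36 and 6.84 CPM in the WT libraries and 1.496, 1.32 and 1.01 CPM in the ml2 libraries (log2 fold change -2.52 ± 0.24, adjusted p = 7.03e-10).

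The windows before PRR5 and PRR9 are shown as those of clock genes lowered in ml2. Capitals mark, on either strand, the evening element AAAATATCT, to which CCA1 and its relatives bind, in PRR5, and the G-box CACGTG in PRR9. PRR5 lies at chr5:8358547-8358846, minus strand, and PRR9 at chr2:19232307-19232606, plus strand.
PRR5: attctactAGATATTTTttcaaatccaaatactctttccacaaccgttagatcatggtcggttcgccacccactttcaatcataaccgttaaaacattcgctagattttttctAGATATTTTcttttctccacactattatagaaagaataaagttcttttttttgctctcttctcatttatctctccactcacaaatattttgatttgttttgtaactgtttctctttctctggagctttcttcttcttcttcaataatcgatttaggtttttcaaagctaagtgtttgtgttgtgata
PRR9: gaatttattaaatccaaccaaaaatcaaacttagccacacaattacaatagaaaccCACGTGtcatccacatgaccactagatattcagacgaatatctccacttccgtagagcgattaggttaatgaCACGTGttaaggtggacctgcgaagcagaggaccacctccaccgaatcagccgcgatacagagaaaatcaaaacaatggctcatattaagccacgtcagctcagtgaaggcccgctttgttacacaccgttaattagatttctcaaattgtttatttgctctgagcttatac

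The evening element was found in 6 of 23 clock windows against 3.07% of all windows, and the G-box in 8 of 23 against 6.89%. Among the 12 lower clock genes with a free window 3 held the evening element and 4 the G-box. The CCA1-binding site AAAAATCT occurred in 2 of the 23 and in 8.52% of all windows. The W-box TTGACC, bound by WRKY factors, occurred in 14% of all windows, in 3 of 11 camalexin windows and in 2 of 25 of the salicylic acid list. The G-box and ACGTGNC can overlap, since both contain ACGTG.

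Light-signalling genes went both ways. Of 34 tested 11 were higher and 10 lower, with a median of 0.032 that turned to -0.00764 with library sizes alone and to -0.00916 without WT replicate 3. The higher members included 3 genes known from shade responses. ATHB2, a homeodomain factor of shade avoidance, was at 13.9, 14.4 and 13.4 CPM in the WT libraries and 62.04, 58.5 and 57.96 CPM in the ml2 libraries (log2 fold change 2.09 ± 0.071, adjusted p = 4.62e-20), and HFR1, which restrains that response, at 54.8, 47.98 and 52.7 CPM in the WT libraries and 174, 166 and 171 CPM in the ml2 libraries (log2 fold change 1.72 ± 0.059, adjusted p = 6.56e-20). PIL1, a further shade marker, was at 1.397, 1.45 and 1.51 CPM in the WT libraries and 5.94, 6.39 and 6.77 CPM in the ml2 libraries (log2 fold change 2.13 ± 0.204, adjusted p = 9.48e-10). HAT1, a relative of ATHB2 outside the list, gave 0.89.

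Among the lower members were regulators of light-grown development. HY5, the transcription factor that promotes it, was at 61.2, 64.4 and 65.8 CPM in the WT libraries and 32.6, 25.5 and 30.1 CPM in the ml2 libraries (log2 fold change -1.12 ± 0.081, adjusted p = 2.54e-12). BBX32, a B-box protein, was at 35.8, 38.1 and 39.2 CPM in the WT libraries and 7.03, 5.703 and 5.67 CPM in the ml2 libraries (log2 fold change -2.62 ± 0.097, adjusted p = 3e-19), and BBX16, outside the list, gave -1.84. SPA1, which helps COP1 degrade HY5 in the dark, was lower too, at 139.9, 149.5 and 138 CPM in the WT libraries and 60.8, 60.9 and 63.5 CPM in the ml2 libraries (log2 fold change -1.205 ± 0.055, adjusted p = 4.15e-17). Of 12 tested organelle sigma factors and expression regulators 6 were lower and none higher. SIG5, a light-responsive sigma factor that directs the chloroplast RNA polymerase, was at 49.8, 47.04 and 51.1 CPM in the WT libraries and 10.7, 10.2 and 10.14 CPM in the ml2 libraries (log2 fold change -2.25 ± 0.078, adjusted p = 6.44e-20).

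**Figure D3:**
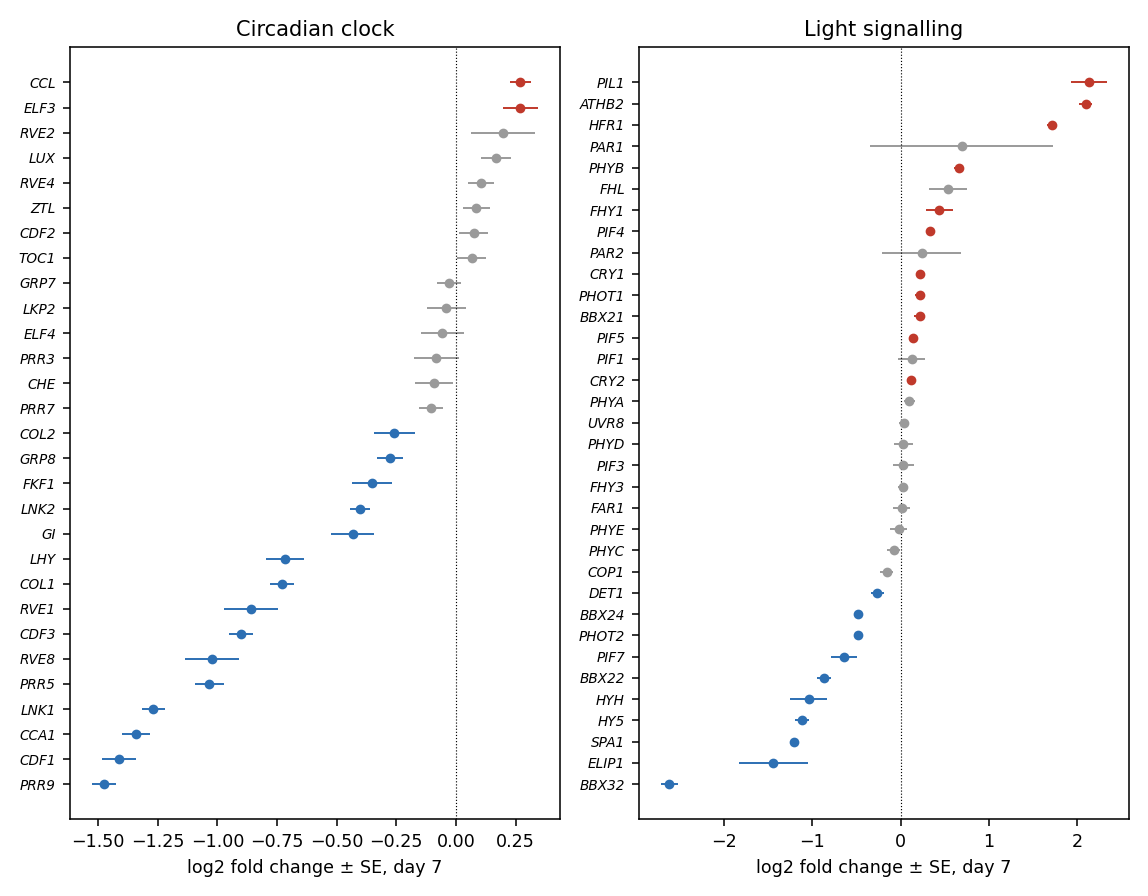
Log2 fold change of ml2 against WT at day 7 with its standard error (x) for each tested gene of the circadian clock list (left) and the light-signalling list (right), ordered by value. Red was called higher, blue lower, grey not called. PRR9 at -1.47 and BBX32 at -2.62 are the lowest in their panels, and PIL1 at 2.13 is the highest on the right.

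Senescence genes were divided. Of 28 tested 16 were higher and 8 lower, with a median of 0.264. At day 0, 25 were higher and none lower, with a median of 1.06. The log2 fold change was called smaller at day 7 than at day 0 for 18 and larger for 2. SAG12, the cysteine protease used as the marker of advanced senescence, was lower, at 89.7, 88.7 and 86.2 CPM in the WT libraries and 31.8, 31.05 and 30.5 CPM in the ml2 libraries (log2 fold change -1.503 ± 0.070, adjusted p = 1.2e-14). SAG29, a sugar transporter, followed with -1.22, and ANAC019, a NAC factor responsive to abscisic acid, was at 304, 305 and 303 CPM in the WT libraries and 180.1, 161 and 175 CPM in the ml2 libraries (log2 fold change -0.82 ± 0.065, adjusted p = 1.76e-11). The regulators ORE1 and ANAC029 (NAP), which drive senescence, were higher, at 158, 168 and 167 CPM in the WT libraries and 258, 236 and 252 CPM in the ml2 libraries (log2 fold change 0.600 ± 0.052, adjusted p = 9.74e-11) and at 235, 244 and 244 CPM in the WT libraries and 374, 355 and 388 CPM in the ml2 libraries (log2 fold change 0.63 ± 0.052, adjusted p = 5.37e-11). So SAG12 and these regulators lay on opposite sides of WT. WRKY53 (0.77), WRKY70 (0.800), WRKY54 (1.06), WRKY75 (0.596) and ORS1 (0.72) were higher as well.

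Chlorophyll breakdown genes were lower or not called. Of 12 tested 6 were lower and none higher, with a median of -0.141. SGR1, the stay-green Mg-dechelatase, was at 398, 384 and 388 CPM in the WT libraries and 333, 296 and 315 CPM in the ml2 libraries (log2 fold change -0.31 ± 0.046, adjusted p = 3.29e-06), and PPH, pheophytinase, at 887, 878 and 884 CPM in the WT libraries and 738, 726 and 746 CPM in the ml2 libraries (log2 fold change -0.26 ± 0.037, adjusted p = 1.5e-06). CLH1, a chlorophyllase, gave -0.804, and NYC1, chlorophyll b reductase, was not called (log2 fold change -0.035 ± 0.037, adjusted p = 0.554). PAO, which opens the ring, was called at -0.14, but not without several of the single libraries.

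Nuclear photosystem and antenna genes were near WT in sum, at 7350 to 7600 CPM in WT and 7480 to 8120 CPM in ml2 for 44 genes. Of these 14 were higher and 8 lower, with a median of 0.077, and 3 to 5 were lower under DESeq2, limma-voom, the replicate block and the fits without any single WT library or without ml2 replicate 2. LHCB1.3 and LHCB1.4, light-harvesting proteins of photosystem II, gave 0.55 and 0.91, while LHCB2.1 was lower at -0.47; LHCB1 copies share reads. Chloroplast-encoded genes had a median of -0.341, and 13 of 88 (14.8%) were lower and none higher, where 12.4% of all tested genes were lower. That count was 5 without WT replicate 2 or ml2 replicate 3, 8 without WT replicate 1 or ml2 replicate 2, and 20 without ml2 replicate 1. GLK2 and GNC, transcription factors of chloroplast development, were lower at -0.68 and -0.83. In the chloroplast import and quality control list 8 of 16 were lower and none higher, led by the chaperonin subunits CPN60A (-0.36) and CPN60B (-0.34).

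Autophagy, the pathway of the series title, encloses cell contents in membranes bearing ATG8 proteins and carries them to the vacuole. Of 32 tested genes of its machinery 10 were higher in ml2 and none lower, with a median of 0.104 (0.0643 with library sizes alone), and 8 to 10 were higher with a single library left out. ATG8E was at 91.95, 93.9 and 91.96 CPM in the WT libraries and 145, 130.2 and 135 CPM in the ml2 libraries (log2 fold change 0.56 ± 0.069, adjusted p = 1.28e-07), and ATG8F at 264, 272 and 259.9 CPM in the WT libraries and 318, 294 and 317 CPM in the ml2 libraries (log2 fold change 0.22 ± 0.048, adjusted p = 0.000572). ATI1, an ATG8-interacting protein of dark-starved plants (0.304), VPS15, a regulatory subunit of the lipid kinase complex (0.297), and ATG18G, a phosphoinositide-binding protein (0.31), were higher by similar amounts. The share of called members, 10 of 32, was above the 13.4% of genes higher across the table, and the other 22 were not called. At day 0, 17 were higher and 1 lower, with a median of 0.246, and 4 were lower without ml2 day 0 replicate 1. The log2 fold change was called smaller at day 7 than at day 0 for 11 and larger for 2.

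At day 0 the same genotypes differed in more genes. The 2 comparisons have no library in common, but both take their spread and scaling from 1 fit over all 18 libraries. In all, 8676 genes (44.5%) were called, 4273 (21.9%) higher and 4403 (22.6%) lower in ml2. With library sizes alone 66.8% of the calls were higher, against 49.3%, and the median over all genes was 0.101, so day 0 changes near zero depend on the scale. Replicate 1 of ml2 at day 0 stood apart from replicates 2 and 3: chi-square per degree of freedom was 12.7 and 8.61 against them, and 3.04 between them. Without it 9356 genes were called.

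Of the 2612 genes higher in ml2 at day 7, 1382 (52.9%) were also higher at day 0, 338 (12.9%) were lower and 892 (34.2%) were not called. Those 1382 are 32.3% of the genes higher at day 0. Of the 2424 lower at day 7, 996 (41.1%) were also lower, 456 (18.8%) were higher and 972 (40.1%) were not called. The 996 are 22.6% of the genes lower at day 0. Without ml2 day 0 replicate 1 the genes of opposite sign numbered 379 and 459. A direct test of whether the difference between ml2 and WT was the same on both days called 5660 genes (29.0%), 2621 with a larger value at day 7 and 3039 with a smaller one. The larger side changed with the setting: the share with a larger value was 46.3% here, but 53.7% under DESeq2, 53.9% with relative log expression (RLE) size factors and 53.4% without ml2 day 0 replicate 1. With library sizes alone it called 6614 genes, of which 22.8% had a larger value at day 7, with a median of -0.154 over all genes.

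The abscisic acid and drought list turned over between the days. At day 0, 16 of its 21 genes were higher in ml2 and none lower, with a median of 1.09, and the test of the difference called all 21 with smaller values at day 7, also without ml2 day 0 replicate 1. RD29A stood at 85.8, 84.5 and 78.8 CPM in WT and 269, 199 and 202 CPM in ml2 at day 0, and its difference between the days was -2.33 ± 0.13, adjusted p = 7.99e-15. For HAI2 the difference was -2.91 ± 0.18, adjusted p = 5.74e-14, and for SAG113 -3.24 ± 0.17, adjusted p = 7.91e-16. Jasmonate synthesis enzymes were higher for 10 and lower for none of 13 at day 0, and 10 had a lower log2 fold change at day 7. The difference between the days for OPR3 was -2.51 ± 0.074, adjusted p = 9.88e-21. Without ml2 day 0 replicate 1, 9 of these enzymes were higher and 2 lower at day 0, and DESeq2 and the RLE size factors each called 1 lower. Of the endoplasmic reticulum chaperones, 14 of 17 were higher at day 0, and at day 7 3 were higher and 5 lower.

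Heat shock genes were higher for 4 and lower for none of 13 at day 0, and 7 had a lower log2 fold change at day 7. The day 0 counts were 2 higher without ml2 day 0 replicate 3, and 3 higher and 1 lower under DESeq2 and without ml2 day 0 replicate 2, where the median turned from 0.226 to -0.0301. HSFA2 gave -3.27 ± 0.41, adjusted p = 1.96e-07 and HSP101 -1.34 ± 0.17, adjusted p = 1.75e-07, the latter not called at day 0 (-0.082 ± 0.15, adjusted p = 0.698). Nuclear photosystem genes went the other way, with 40 of 44 lower at day 0, none higher, and a larger value at day 7 for 35. Salicylic acid genes were higher on both days, 24 of 26 at day 0 with a median of 1.41, and 16 had a lower log2 fold change at day 7. PR1 stood at 16.4, 14.2 and 15.7 CPM in WT and 94.4, 109 and 101 CPM in ml2 at day 0, with a difference of -0.68 ± 0.13, adjusted p = 0.000117. CYP71A13 showed no called difference between the days (0.200 ± 0.18, adjusted p = 0.445), nor did CCA1 (0.072 ± 0.082, adjusted p = 0.561). Most members of their lists did. Of 12 camalexin genes 11 were higher and 1 lower at day 0, with a median of 0.891. By the test of the change 9 had a smaller value at day 7 and 2 a larger one. Of 29 clock genes 9 were higher and 16 lower at day 0, with a median of -0.24. Of these 29 genes 14 had a smaller value at day 7 and 8 a larger one.

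**Figure D4:**
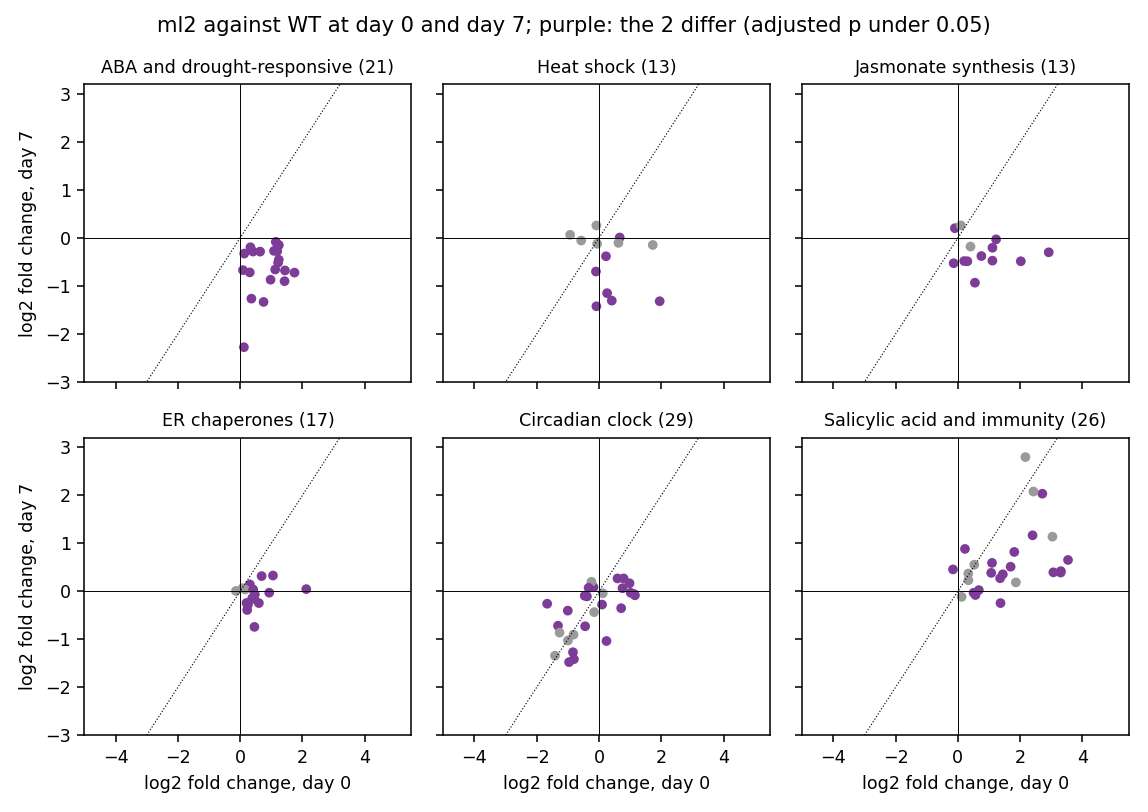
Log2 fold change of ml2 against WT at day 0 (x) and day 7 (y) for the tested members of 6 gene lists (number of members in brackets). The dotted line marks equal values, and purple points differ between the days at an adjusted p under 0.05. The 21 genes responsive to abscisic acid and drought lie below the line, with medians of 1.09 at day 0 and -0.512 at day 7, and the salicylic acid genes lie mostly right of zero.

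**Figure D5:**
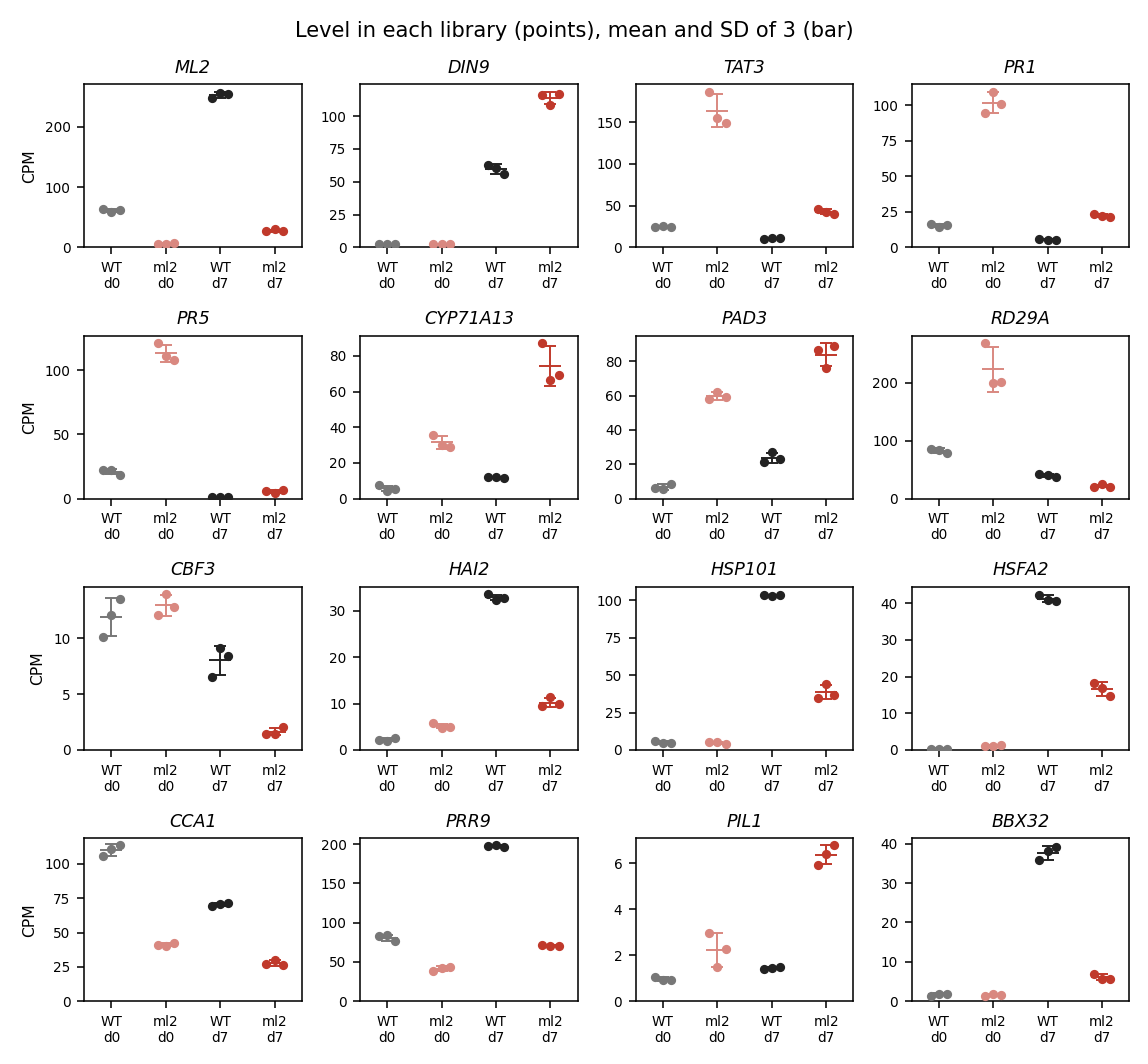
Level in CPM (y, from 0) of 16 genes in each library of WT and ml2 at day 0 (d0) and day 7 (d7). Points are libraries, and the bar gives the mean and SD of 3. ML2 is low in ml2 on both days, RD29A is above WT in ml2 at day 0 and below it at day 7, and HSP101 is near 5 CPM in both genotypes at day 0.

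Against the ml5 knockdown at day 7, ml2 differed in 8065 genes (41.4%), 4364 (22.4%) higher and 3701 (19.0%) lower in ml2. With library sizes alone 40% of the calls were higher, against 54.1%. The camalexin genes were higher than in ml5 for 11 and lower for 1 of 12, with CYP71A13 at 6.68, 6.83 and 7.63 CPM in the ml5 libraries (3.398 ± 0.11, adjusted p = 1.06e-20). Starvation genes were higher for 13 and lower for 1 of 17, and peroxidases higher for 19 and lower for 1 of 30. The abscisic acid and drought genes were lower for 10 and higher for 4 of 21, and clock genes lower for 22 and higher for none of 29. HSP101 was below ml5 (-0.89 ± 0.073, adjusted p = 2.13e-11), as were PUB19 (-2.17 ± 0.092, adjusted p = 3.3e-18) and BBX32 (-1.51 ± 0.101, adjusted p = 1.89e-13). Salicylic acid genes went both ways, with 12 higher and 8 lower of 26: PR1 was above ml5 (1.098) and PR5 below it (-0.68). SAG12 was at 3.85, 4.09 and 3.19 CPM in ml5, and the ml2 libraries lay between those of ml5 and WT (3.06 ± 0.096, adjusted p = 2.96e-18). The floral repressor MAF5 and the shade gene HFR1 gave 0.63 and -0.030 against ml5, the latter not called.

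Of 20 tested flowering time genes 4 were higher and 2 lower, with a median of -0.007. Of 22 reactive oxygen and redox genes 5 were higher and 6 lower, with a median of 0.009. Among all tested genes 13.4% were higher and 12.4% lower. MAF5, a MADS-box repressor of flowering, was at 3.38, 2.803 and 2.97 CPM in the WT libraries and 21.5, 17.7 and 20.9 CPM in the ml2 libraries (log2 fold change 2.71 ± 0.11, adjusted p = 5.32e-18). MAF4, a neighbouring copy, gave 1.45, and the flowering repressors TEM1 and TEM2 both gave values near 1, 0.94 and 0.94. The 2 lower flowering time genes are not named here, so the repressors named do not stand for the list. MSRB7, a methionine sulfoxide reductase, was at 4.91, 7.47 and 5.28 CPM in the WT libraries and 35.9, 35.1 and 36.95 CPM in the ml2 libraries (log2 fold change 2.61 ± 0.12, adjusted p = 1.29e-16). MDHAR (AT3G09940), which recycles ascorbate, gave 2.36, OXS3, an oxidative stress protein, 1.99, BGLU27, a beta-glucosidase, 1.92, and PROPEP3, the precursor of an immune peptide, 1.85. In CPM the gains were led by CAT3, a catalase, at 10931, 11042 and 11209 CPM in the WT libraries and 13119.7, 12855 and 13238 CPM in the ml2 libraries (log2 fold change 0.24 ± 0.031, adjusted p = 3.9e-07). EBP, an ethylene response factor, was at 2135, 2188 and 2206 CPM in the WT libraries and 4158, 3542 and 4094 CPM in the ml2 libraries (log2 fold change 0.85 ± 0.049, adjusted p = 7.8e-15), and SIP2, a galactosidase-like enzyme of the raffinose family, gave 0.42.

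The largest falls after ML2 lay in several pathways. cPT4, a cis-prenyltransferase, was at 65.04, 59.98 and 62.7 CPM in the WT libraries and 7.28, 9.26 and 6.54 CPM in the ml2 libraries (log2 fold change -3.02 ± 0.102, adjusted p = 4.85e-20), and TPS03, a terpene synthase, at 13.3, 13.2 and 11.7 CPM in the WT libraries and 1.895, 2.05 and 1.84 CPM in the ml2 libraries (log2 fold change -2.72 ± 0.16, adjusted p = 3.34e-14). PUB19, a U-box ubiquitin ligase of drought responses, was at 62.7, 60.9 and 60.8 CPM in the WT libraries and 10.5, 9.797 and 9.12 CPM in the ml2 libraries (log2 fold change -2.65 ± 0.091, adjusted p = 6.17e-20), and DIP2, annotated as a ubiquitin ligase, gave -1.905. MRD1, named for its fall in a methionine overproducer, was at 8.65, 6.63 and 9.004 CPM in the WT libraries and 1.247, 1.17 and 0.875 CPM in the ml2 libraries (log2 fold change -2.88 ± 0.22, adjusted p = 5.84e-12). TZP, a zinc knuckle protein of light-dependent growth (-1.72), and CYP71B26, a cytochrome P450 (-1.71), were also lower. MYBR1, a Myb factor of abscisic acid responses, was among the largest losses in CPM, at 926, 916 and 946 CPM in the WT libraries and 611, 575 and 603 CPM in the ml2 libraries (log2 fold change -0.64 ± 0.042, adjusted p = 2.36e-13).

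Other lists gave few or mixed calls, beside 13.4% higher and 12.4% lower among all tested genes. Of 26 proteasome subunits 3 were lower and none higher, and of 238 pentatricopeptide repeat proteins, which process organelle RNA, 5 were higher and 13 lower. Cytosolic ribosomal proteins were higher for 7 and lower for 20 (12.3%) of 163. In the Calvin cycle 2 of 17 were higher and 5 lower. Cytochromes P450 were higher for 26 and lower for 31 of 131. Ethylene synthesis and signalling had 7 higher and 2 lower of 21.

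Markers of other tissues were checked beside these results. Photosystem genes, which mark green tissue, had the sums given above. Of 10 root markers PLT1, WER, RHD6 and EXP7 were at 0 in all 6 day 7 libraries and the summed level was 23.5 to 26.5 CPM in WT and 22.6 to 25 CPM in ml2. Of the 3 root markers tested, PYK10 was called higher (1.09) and SCR lower (-0.40). Of 14 flower and seed markers CRA1, OLEO1, AT2S3 and ABI3 were at 0, with sums of 3.18 to 4.55 CPM in WT and 3.31 to 4.24 CPM in ml2, and none of the 5 tested was called. Xylem markers summed to 2.57 to 3.82 CPM in WT and 2.79 to 3.80 CPM in ml2, with VND6 and VND7 at 0 and none of 7 called. Phloem markers summed to 613 to 622 CPM in WT and 599 to 638 CPM in ml2, with 2 higher and 2 lower of 9. Guard cell markers were lower in sum, at 98 to 102 CPM in WT and 84.5 to 95.1 CPM in ml2, with SPCH at 0. Only OST1 (-0.29), 1 of 7 tested (14.3%), was called lower, near the 12.4% of all tested genes. Epidermis and trichome markers were also lower in sum, at 345 to 354 CPM in WT and 314 to 321 CPM in ml2, with GL1 at 0. Of 11 tested 3 (27.3%) were lower, CER1 (-1.49), KCS1 (-1.28) and CER3 (-0.19), and 1 was higher, TTG1 (0.21). The part of guard cells and epidermis in the lower abscisic acid and drought genes was not tested.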

How the data were processed

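Per the labels' protocols, total RNA of leaves (Trizol) went into TruSeq libraries. Per the submitters' processing notes, TopHat2 2.0.12 and Bowtie2 2.0.6 were used and the builds TAIR10 and IRGSP-1.0 (rice) are named, the second with no stated role. The deposited table holds the authors' estimated counts per gene, judged from its values: 97.13% are whole numbers. Which counter made them, and whether strand was used, is not given in the sources used here. The table's CK columns were read as day 0 and its D columns as day 7, which the labels imply but do not spell out.

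Estimated counts were rounded, filtered with filterByExpr (minimum count 10), scaled by TMM and fitted as 6 group means over 18 libraries in edgeR 4.0.16 (R 4.3.3, limma 3.58.1), with quasi-likelihood tests (both directions) and Benjamini-Hochberg adjustment over the genes of each comparison. The common biological coefficient of variation was 5.63%. When the day 7 contrast of ml2 and WT was simulated (19355 genes), 23 of 50 genes changed 1.25-fold were called. At 1.5-fold 38 were called, at 2-fold 46 and at 4-fold 50, with 7 false calls. The simulation changed far fewer genes than were called in the data, none at a very low WT level. Its counts were drawn from the fitted spread, so these rates may not hold for the data. Depth was 14914598 to 20417396 counts per library. Alternatives were DESeq2 1.42.0, limma-voom, other scalings and filters, a replicate block and fits without each library.

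Members and gene lists were chosen with earlier results of these data known; 58 of 1003 written list members were dropped because identifier and symbol did not match, and the families came from annotated symbols or descriptions. Named genes were the Mei2-like family, the neighbours of ML2, up to 5 members of each list by smallest adjusted p, the 15 largest rises and falls and the 5 largest gains and losses in CPM, each with groups that do not overlap and calls that held in every alternative, members of the 15 lists with the largest share called in 1 direction, and the 10 largest shifts between days in each direction. Genes named beyond that were chosen after their values were seen.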

Additional observations from a re-analysis of the deposited data

Results flagged for a closer look

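Each result here was marked because the difference between ml2 and WT changed between day 0 and day 7 by the test of that change itself, an edgeR contrast of the WT and ml2 groups of both days, fitted over all 18 libraries. It called 5660 genes. The check for a single library standing apart needs 4 libraries a group and was not made. Replicate 1 of ml2 at day 0 differed more from replicates 2 and 3 (chi-square per degree of freedom of 12.7 and 8.61) than these did from each other (3.04), and without it the test called 6828 genes. All differences below are log2 values, day 7 less day 0, for the 10 largest in each direction under the naming rule.

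The largest shifts downward included stress and hormone genes. BGLU27, a beta-glucosidase, had a fitted shift of -4.79, but its WT libraries were all at 0 on day 0 and its ml2 libraries under 1 CPM, so that value depends on the prior count. DIP2 shifted by -4.47, from 2.56 to -1.905. LBD1, a LOB-domain factor, shifted by -4.33 and MLO12, a relative of the barley mildew gene, by -4.26. BRU6, a GH3-family gene at no more than 1 count in any WT library on day 0, shifted by -4.17. PUB19 shifted by -4.06. The glutathione transferases GSTU3 and GSTL1 shifted by -3.57 and -3.35, HSFA2 by -3.27 and GA2OX6, which inactivates gibberellin, by -3.25. DIP2, LBD1, MLO12, PUB19, HSFA2 and GA2OX6 were above WT at day 0 and below it at day 7.

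The largest shifts upward included cell wall genes. LAC7, a laccase, shifted by 4.04, MC9, a metacaspase, by 2.68 and ASPGB1, an asparaginase, by 2.65, each with an ml2 library at 0 and all libraries under 1 CPM on day 0, so these sizes too depend on the prior count. XTH6, a xyloglucan-modifying enzyme, shifted by 2.36 and EXPA1, an expansin, by 2.06. MRD1 shifted by 2.14 while below WT on both days, at -5.02 and -2.88. FLA13, an arabinogalactan protein, shifted by 1.94, SWEET2, a vacuolar sugar transporter, by 1.91, HAT1 by 1.75 and the kinase gene CIPK15 by 1.57. Apart from MRD1, each of these was below WT at day 0 and above it at day 7.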

How the results depend on the processing

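For ml2 against WT at day 7 the 5036 calls became 4769 to 5670 under the other scalings, filters, tools, the replicate block and the fit on only the libraries compared, and 4087 to 4520 without single libraries; at day 0 the 8676 calls became 7488 to 9096 and 7652 to 9356, for the change between days the 5660 became 5164 to 6614 and 5026 to 6828, and against ml5 the 8065 became 7636 to 8619 and 7038 to 7654. None moved by more than 1.5 times. Library sizes alone moved the share of higher calls by over 10 percentage points in each comparison, as given with the results; the cause was not tested. DESeq2 called 4893 genes at day 7, 2602 higher.

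No pairing by replicate number was seen. Deviations of same-numbered libraries of WT and ml2 correlated at -0.024 to 0.009 at day 7 and at -0.006 to 0.077 at day 0. With 3 libraries a group such values cannot exclude a shared harvest or batch. With a replicate block 4769 genes were called at day 7, 8516 at day 0, 5412 for the change between days and 7834 against ml5.

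Of 510 genes eligible for naming 414 were called, of which 387 kept their call and direction under every alternative and 27 lost the call under at least 1. None turned its direction. Another 16 gained a call. Among chloroplast-encoded genes, 13 lower became 27 with no filter on low counts, 24 with only the libraries compared and 7 with limma-voom. Depth limits genes below about 1 CPM, and the alternatives on list counts were chosen after seeing the data.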
